A study of Mus musculus with 10 samples.

Results

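The Frizzled genes, Fzd1 to Fzd10 of the mouse, encode the cell-surface receptors that bind Wnt proteins. All 10 were found among the 22180 genes measured, each by its symbol in the platform annotation and each with 1 probe set, so no choice between probe sets was needed. Expression was measured on 10 Affymetrix arrays of RNA from sorted lung epithelial cells of mice at postnatal day 4, 5 arrays for each of 2 cell populations. Axin2+ cells came from Axin2CreERT2-TdTomato mice, in which Axin2 drives a tamoxifen-dependent Cre, and were sorted for TdTomato and the epithelial protein EpCAM and against the endothelial protein CD31 and the leukocyte protein CD45. SP-C+ cells came from SftpcCreERT2-R26REYFP mice, in which the surfactant protein C gene Sftpc drives the Cre, and were sorted for YFP after 24 h of tracing. The mice of both lines had C57BL/6, 129S6 and CD-1 ancestry. A description common to all samples also speaks of day 3 and adult cells, whereas titles and ages give day 4. Both populations are labelled type 2 alveolar epithelial cells (AEC2s). The mouse line, the reporter and the gate differ between the populations and cannot be told apart from the cell labels. No tracing time was found in the labels for Axin2+ cells, so any difference in it cannot be told apart either. No AEC2 marker was part of the Axin2+ gate, and no label says that replicates are separate animals, so that part of the spread may be technical.

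Frizzled proteins span the membrane many times and hold a cysteine-rich domain outside the cell that binds the lipid-modified Wnt ligand. Together with LRP5 or LRP6 they pass the signal through Dishevelled to beta-catenin, and with other partners they act in planar cell polarity, which orients cells and their cilia within an epithelium. By sequence the family falls into Fzd1, Fzd2 and Fzd7, the pair Fzd5 and Fzd8, the pair Fzd3 and Fzd6, the pair Fzd9 and Fzd10, and Fzd4. In the alveoli, Wnt signalling is known to maintain AEC2s and to act on their growth, and Axin2 is widely used as a target gene that reports it. The comparison of Axin2+ with SP-C+ cells sets cells labelled as Wnt-responsive against AEC2s labelled as a whole.

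Receptors of the family differed in opposite directions. Fzd1 and Fzd2 were higher in Axin2+ than in SP-C+ arrays, by 1.58-fold and 1.90-fold. Fzd7, of the same subfamily, was lower, as were Fzd5, Fzd8 and Fzd4, by 1.27-fold to 1.46-fold. Fzd3 and Fzd6 did not pass the test, and Fzd9 and Fzd10 stayed under the 95th percentile of the receptor genes of sensory neurons. In all, 2 of the 10 genes were higher and 4 lower at an adjusted p under 0.05 in limma, a linear model with a shared estimate of the spread, against 17.6% of all genes, or 8.61% higher and 8.95% lower. When the fit was run only on the 11090 genes at or above the 50th percentile of brightness, 34.1% were called, so that a call is more frequent among bright genes, to which 8 of the Frizzled genes belong. The median difference (Axin2+ minus SP-C+, log2) was -0.07 over the 10 genes and -0.04 over all genes. The groups did not overlap in 5 of the 10 genes, with Axin2+ above SP-C+ in 2 and below it in 3, against 15% of all genes, 7.38% above and 7.66% below.

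Facts of the arrays bear on all of these values. Arrays correlated at 0.993 to 0.995 within Axin2+, at 0.987 to 0.993 within SP-C+ and at 0.973 to 0.983 between the groups. Within SP-C+, replicates 1, 2 and 3 lay apart from replicates 4 and 5 on the second principal component, at 10.1 to 18.4 against -24.0 and -23.3. Background was taken from 1394 olfactory and vomeronasal receptor genes, which belong to sensory neurons, and their 95th percentile lay between 5.59 and 5.78 on the 10 arrays. All 15 AEC2 markers lay above it on every array, and 0 were higher and 3, Cebpa, Cd36 and Sftpd, lower in Axin2+ arrays, with a median difference of -0.18. Axin2 itself was lower in Axin2+ (7.93 ± 0.12) than in SP-C+ arrays (8.46 ± 0.06; SD, n = 5 each), with a limma adjusted p of 3.28e-04. All 18 type 1 cell (AEC1) markers were higher in Axin2+ arrays, where their summed linear values ran from 69567 to 84263, against 31590 to 37112 in SP-C+ arrays. Of 10 secretory cell markers 7 were higher and 0 lower, and of 15 leukocyte markers 1 was higher and 3 were lower. Of 5 mesothelial markers 2, Msln and Krt19, were higher and 0 lower. The other mesothelial markers, Wt1, Upk3b and Lrrn4, did not pass, with differences of 0.04, 0.14 and -0.01. Of 16 markers of ciliated cells 15 were higher, with sums of 8892 to 10443 in Axin2+ and 1326 to 1595 in SP-C+ arrays. Of all genes 17.6% were called. In the lists it was 100% of AEC1, 20% of AEC2, 93.8% of ciliated, 70% of secretory, 40% of mesothelial and 26.7% of leukocyte markers. The part of these other cell types in the Frizzled differences was not tested, and a change in the share of a cell type cannot be told apart from a change of RNA per cell in such bulk samples.

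**Figure D1:**
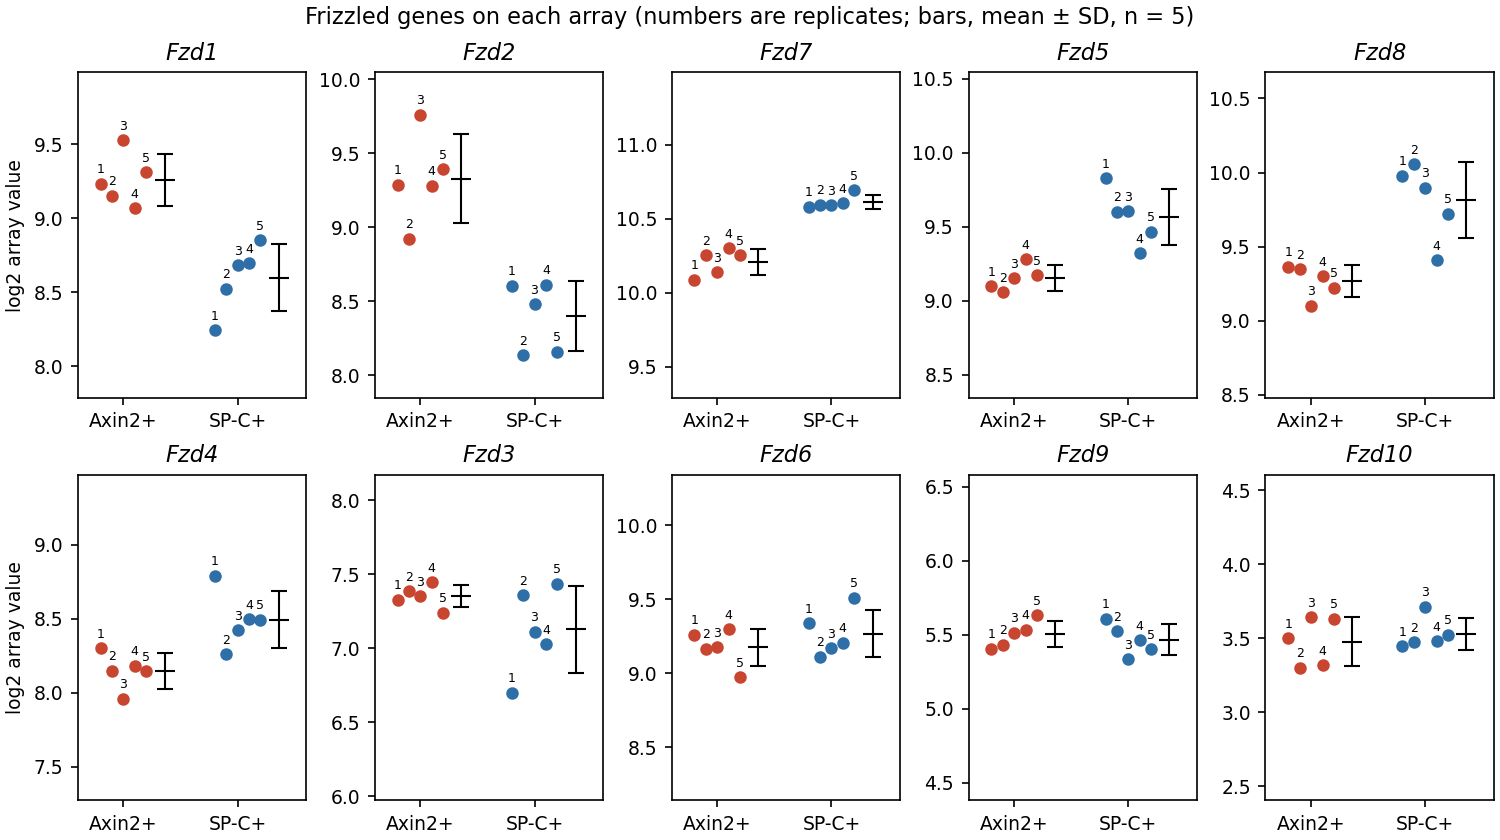
Log2 array value of each Frizzled gene on every array, with Axin2+ arrays in red and SP-C+ arrays in blue; numbers give the replicate, and black bars the mean ± SD of 5 arrays. Every panel spans the same range of log2 units around its own centre. The red points lie above the blue ones for Fzd1 and Fzd2 and below them for Fzd7, Fzd5 and Fzd8, while the groups overlap for the other 5 genes.

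Fzd2 showed the largest difference of the family. Its log2 values were 9.29, 8.92, 9.76, 9.28 and 9.39 in Axin2+ replicates 1 to 5, against 8.61, 8.13, 8.48, 8.61 and 8.16 in SP-C+ replicates 1 to 5. The lowest Axin2+ array, replicate 2, still lay above every SP-C+ array, and Axin2+ replicate 3 was the highest. The difference was 0.93 ± 0.15 SE (95% interval 0.61 to 1.25, n = 5 per group, limma adjusted p = 7.61e-04), and 3.21% of all genes had a difference as high or higher. Fzd2 was also the member with the widest spread among Axin2+ arrays, with an SD of 0.30 against a median of 0.13 over all genes there.

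Fzd1, a close relative of Fzd2, moved the same way. It measured 9.23, 9.15, 9.53, 9.07 and 9.31 in Axin2+ arrays, against 8.25, 8.52, 8.68, 8.70 and 8.85 in SP-C+ arrays. All Axin2+ arrays lay above all SP-C+ arrays, and SP-C+ replicate 1 was the lowest. The difference was 0.66 ± 0.12 SE (95% interval 0.40 to 0.92, limma adjusted p = 0.00186). As with Fzd2, Axin2+ replicate 3 was the highest array, and that array also had the highest mean of AEC1 markers, 11.83 against 11.43 to 11.66 on the other Axin2+ arrays. Among SP-C+ arrays, replicate 1 had the highest AEC1 mean, 9.69 against 9.26 to 9.31, and the lowest Fzd1. Fzd2 was not low on that array, at 8.61, the same as on replicate 4. Single AEC1 markers differed: Cav1, Clic5 and Hopx were highest on replicate 1 among SP-C+ arrays, and Ager, Pdpn and Rtkn2 were not. The same array also had the highest mean of endothelial markers, 7.47. The part of AEC1 RNA in the Fzd1 and Fzd2 differences was not tested. Against SP-C+ replicates 4 and 5 alone the Fzd1 difference was 0.49 ± 0.13 (limma adjusted p = 0.0365). Against replicates 1, 2 and 3 alone it was 0.77 ± 0.13 (0.00155). Fzd2 gave 0.94 ± 0.20 (0.0162) and 0.92 ± 0.17 (0.00330) in the same 2 fits, so that both genes passed with either part of the SP-C+ arrays.

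Receptors of this kind are also known from mesenchymal cells, whose markers were therefore read beside them. Of 16 mesenchymal markers 0 were higher and 1, Pdgfra, was lower in Axin2+ arrays (6.25%, against 17.6% of all genes). Their summed values ran from 1094 to 1281 in Axin2+ and from 1061 to 1618 in SP-C+ arrays. Of the 16, 8 lay above the background of sensory receptor genes on every array, among them Acta2, Col1a1 and Col1a2, and 3 on no array, Dcn, Lum and Fgf10. Pdgfra did not pass against SP-C+ replicates 4 and 5 alone (-0.50, limma adjusted p = 0.0789). The part of mesenchymal RNA in the Fzd1 and Fzd2 differences was not tested.

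Fzd7, the remaining member of that subfamily and a receptor often found on stem and progenitor cells, differed the other way. It measured 10.09, 10.25, 10.14, 10.30 and 10.25 in Axin2+ arrays, against 10.58, 10.59, 10.59, 10.60 and 10.69 in SP-C+ arrays. The groups did not overlap, and the SP-C+ arrays were the most uniform of any Frizzled gene in that group, with an SD of 0.04 against a median of 0.17 over all genes. The difference was -0.41 ± 0.07 SE (95% interval -0.56 to -0.25, limma adjusted p = 0.00129), or 1.32-fold lower. It passed with either part of the SP-C+ arrays, at -0.38 ± 0.08 (limma adjusted p = 0.00749) against replicates 1, 2 and 3 and -0.44 ± 0.09 (0.0142) against replicates 4 and 5.

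**Figure D2:**
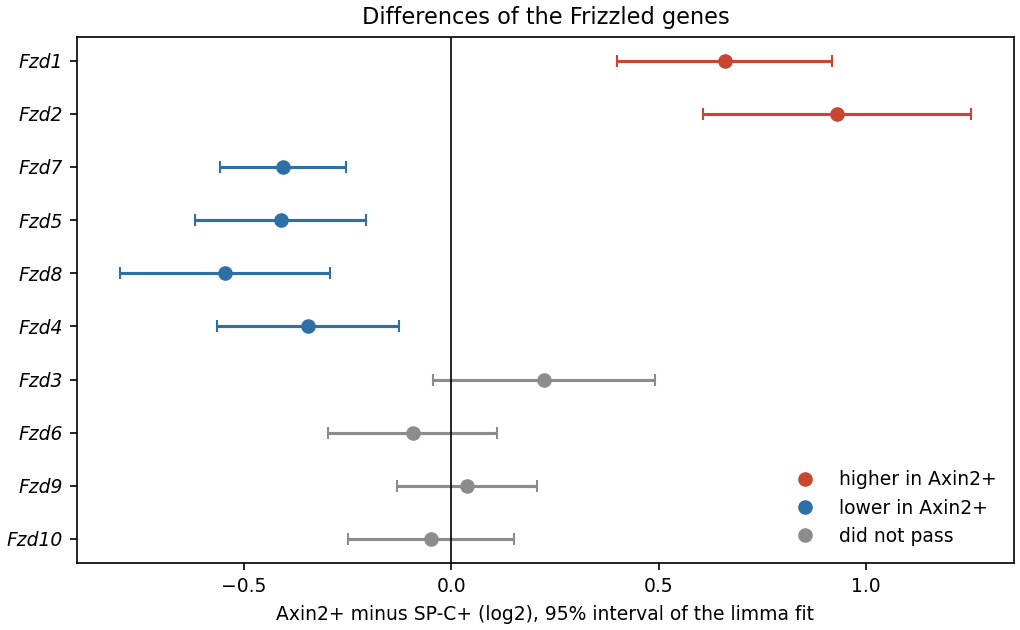
Difference of each Frizzled gene between Axin2+ and SP-C+ arrays (points, log2) with its 95% interval from the limma fit over all genes; red and blue mark genes that passed as higher or lower, and grey those that did not pass. The intervals of Fzd1 and Fzd2 lie wholly above 0, and those of Fzd7, Fzd5, Fzd8 and Fzd4 wholly below it.

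Fzd5 and Fzd8, a pair of closely related receptors, were both lower in Axin2+ arrays. Fzd8 measured 9.36, 9.35, 9.10, 9.30 and 9.22 in Axin2+ arrays, against 9.98, 10.06, 9.90, 9.41 and 9.72 in SP-C+ arrays. Fzd5 measured 9.10, 9.06, 9.15, 9.28 and 9.17 in Axin2+ arrays, against 9.83, 9.60, 9.60, 9.32 and 9.47 in SP-C+ arrays. In both genes the groups did not overlap, but SP-C+ replicate 4 came close to the Axin2+ arrays. The difference was -0.55 ± 0.12 SE for Fzd8 (95% interval -0.80 to -0.29, limma adjusted p = 0.00564), the steepest fall in the family. For Fzd5 it was -0.41 ± 0.10 (95% interval -0.62 to -0.20, limma adjusted p = 0.00911).

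The size of the fall in this pair changed with the choice of SP-C+ arrays. In SP-C+ replicates 4 and 5 the mean of Fzd8 was 9.57, against 9.98 in replicates 1, 2 and 3, and that of Fzd5 was 9.39, against 9.68. Set against replicates 4 and 5 alone, Fzd8 was at -0.30 ± 0.11 and Fzd5 at -0.24 ± 0.09, and neither passed (limma adjusted p = 0.134 and 0.140). Set against replicates 1, 2 and 3 alone, they were at -0.71 ± 0.09 and -0.52 ± 0.09 and both passed (limma adjusted p = 2.74e-04 and 0.00212). What sets these SP-C+ arrays apart was not tested.

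**Figure D3:**
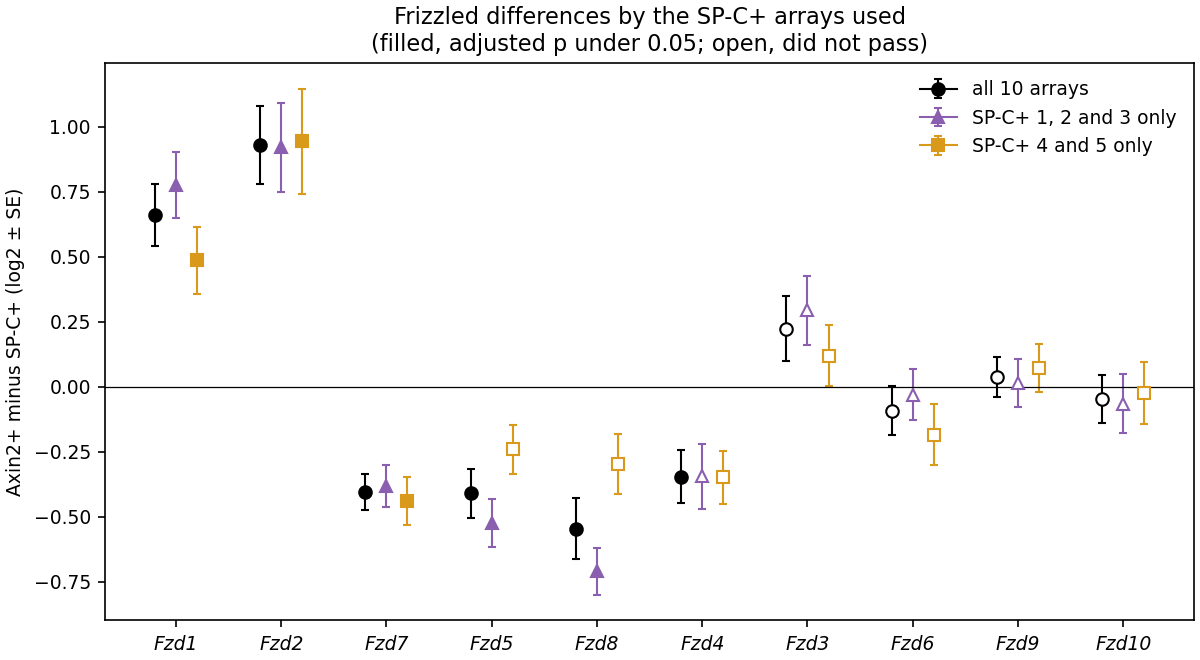
Difference of each Frizzled gene (log2 ± SE) with all 10 arrays (black circles), with SP-C+ replicates 1, 2 and 3 only (purple triangles) and with SP-C+ replicates 4 and 5 only (orange squares), always against the 5 Axin2+ arrays; filled symbols passed and open ones did not. Fzd1, Fzd2 and Fzd7 are filled in all 3 fits, while Fzd5 and Fzd8 lie nearer to 0 and are open with replicates 4 and 5.

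Fzd4, which also serves as the receptor of Norrin in blood vessels, was lower by the smallest margin. It measured 8.30, 8.15, 7.96, 8.18 and 8.15 in Axin2+ arrays, against 8.79, 8.26, 8.42, 8.50 and 8.49 in SP-C+ arrays. Axin2+ replicate 1 lay above SP-C+ replicate 2, so the groups overlapped. The difference was -0.35 ± 0.10 SE (95% interval -0.57 to -0.13, limma adjusted p = 0.0323). The call was lost in 7 of 10 fits that left out 1 array, namely SP-C+ replicate 1, 4 or 5 or Axin2+ replicate 2, 3, 4 or 5, with limma adjusted p-values of 0.0520 to 0.0873 and differences of -0.35 to -0.27.

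SP-C+ replicate 1 was the highest array for Fzd4 and for the means of endothelial, mesenchymal and leukocyte markers. The mean of the 15 endothelial markers was 7.47 on that array, against 6.35 to 6.91 on the other SP-C+ arrays, and lay between 6.47 and 6.69 on Axin2+ arrays. The mesenchymal mean was 6.25 on it, against 5.74 to 5.96 on the other SP-C+ arrays, and the leukocyte mean 6.68, against 6.44 to 6.49. The order of the other SP-C+ arrays differed between the measures, since replicate 3, the next in endothelial markers at 6.91, was lower in Fzd4 than replicates 4 and 5. The summed endothelial values ran from 2974 to 3409 in Axin2+ and from 2446 to 4428 in SP-C+ arrays. Of the 15, 0 were higher and 1, Car4, lower (6.67%, against 17.6% of all genes). That call was lost in 8 of 10 fits that left out 1 array. Cdh5, the endothelial cadherin, was at 9.68 on SP-C+ replicate 1 and at most at 8.44 on the others. Without that array Fzd4 was at -0.27 ± 0.09 (limma adjusted p = 0.0572). The part of RNA from these cell types in the Fzd4 difference was not tested.

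Fzd3 and Fzd6, which are best known for their role in planar polarity, did not pass. Fzd3 measured 7.33, 7.38, 7.35, 7.45 and 7.24 in Axin2+ arrays, against 6.70, 7.36, 7.11, 7.03 and 7.43 in SP-C+ arrays. The SP-C+ arrays spread widely, from below the narrow Axin2+ group to within it, and none lay above its highest array. The SDs were 0.08 in Axin2+ and 0.29 in SP-C+. The difference of 0.22 ± 0.12 had a 95% interval of -0.04 to 0.49 (limma adjusted p = 0.259).

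Fzd6 measured 9.26, 9.17, 9.18, 9.30 and 8.98 in Axin2+ arrays, against 9.34, 9.11, 9.17, 9.21 and 9.51 in SP-C+ arrays. The groups overlapped almost fully, with the lowest array in Axin2+ and the highest in SP-C+, both replicate 5. Its difference was -0.09 ± 0.09, with an interval of -0.30 to 0.11 (limma adjusted p = 0.576). A change of the size seen in Fzd1 lies outside the intervals of both genes.

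Fzd9 and Fzd10 did not rise above the 95th percentile used as background. Fzd9 lay between 5.40 and 5.63 in Axin2+ and between 5.33 and 5.61 in SP-C+ arrays. Fzd10 lay between 3.30 and 3.64 in Axin2+ and between 3.44 and 3.71 in SP-C+ arrays. Both stayed under the 95th percentile of the sensory receptor genes on every array, and the other 8 members lay above it on every array. The median of those receptor genes lay between 3.30 and 3.45, near Fzd10 and well below Fzd9. The differences were 0.04 ± 0.08 and -0.05 ± 0.09 (limma adjusted p = 0.807 and 0.784). Values of different probe sets depend on the probes as well as on the transcript, so no order of level among the members is given.

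The windows just before the annotated starts are shown for 3 members that passed, Fzd1 of the higher and Fzd7 and Fzd5 of the lower genes. Of these, Fzd1 and Fzd7 are relatives within a subfamily that differed in opposite directions. The sequences are RefSeq's for build GRCm38.p6, from a table of windows in which 6 of the 10 genes were matched, and run 5′ to 3′ on the gene's strand over the 250 bases before the start. Fzd1 lies on the minus strand (chr5:4758217-4758466), Fzd7 on the plus strand (chr1:59481897-59482146) and Fzd5 on the minus strand (chr1:64737751-64738000). Capitals mark matches on either strand to CTTTGA or CTTTGT, the cores bound by the Wnt effectors TCF and LEF, to GGAATG, the core bound by the YAP partners TEAD, to GGGCGG, the GC box, and to CCAAT. Matches may touch or overlap each other.
Fzd1: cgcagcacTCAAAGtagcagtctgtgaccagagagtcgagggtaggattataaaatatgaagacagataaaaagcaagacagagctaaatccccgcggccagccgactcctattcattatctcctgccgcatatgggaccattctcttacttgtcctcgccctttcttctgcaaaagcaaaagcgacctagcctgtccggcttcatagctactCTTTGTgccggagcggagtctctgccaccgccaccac
Fzd7: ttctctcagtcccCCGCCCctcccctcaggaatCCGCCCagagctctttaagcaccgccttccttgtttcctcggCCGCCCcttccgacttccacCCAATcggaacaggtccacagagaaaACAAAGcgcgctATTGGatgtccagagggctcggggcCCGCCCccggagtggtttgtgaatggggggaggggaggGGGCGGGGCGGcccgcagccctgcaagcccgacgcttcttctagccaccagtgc
Fzd5: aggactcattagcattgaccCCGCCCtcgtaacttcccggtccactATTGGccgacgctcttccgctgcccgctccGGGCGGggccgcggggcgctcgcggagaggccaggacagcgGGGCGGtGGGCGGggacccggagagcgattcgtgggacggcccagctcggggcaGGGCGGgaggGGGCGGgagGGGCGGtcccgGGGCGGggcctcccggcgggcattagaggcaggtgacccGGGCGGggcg
The Fzd1 window held 1 match to CTTTGA and 1 to CTTTGT and no GC box, with 51.2% G and C. The Fzd7 window held 1 match to CTTTGT, 6 GC boxes and 2 CCAAT matches, with 65.2% G and C. The Fzd5 window held 9 GC boxes and 1 CCAAT match and neither TCF and LEF core, with 76.4% G and C. Among all 32851 windows of that length, 13.8% held CTTTGA, 16.5% CTTTGT, 12.6% GGAATG, 32.7% GGGCGG and 33.8% CCAAT, and the median G and C content was 52.4%. Of the 6 Frizzled windows 5 held GGGCGG, among them those of Fzd9 and Fzd10, which did not pass. Fzd2, Fzd3, Fzd6 and Fzd8 had no window. These matches describe letters only, and nothing on binding was measured here.

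The genes with the most similar profile were looked up for the member with the largest rise and the one with the largest fall. Likeness was the root mean square difference between log2 values, each gene centred on its mean over the 10 arrays. Other Frizzled genes, predicted or unnamed genes, microRNA genes and sensory receptor genes were left out of the search. For Fzd2, whose own values varied by 0.52 around their mean on that measure, the nearest genes were Dgkh, a diacylglycerol kinase (0.121), Myo1c, an unconventional myosin (0.123), and Sh3bp4, an adaptor of endocytosis (0.127). For Fzd8, whose values varied by 0.33, they were Irx1, a homeobox transcription factor (0.072), Nin, the centrosome protein ninein (0.092), and the zinc finger gene Zfp959 (0.095). Irx1 differed by -0.48 ± 0.10 and Myo1c by 0.90 ± 0.10 (limma adjusted p = 0.00564 and 3.13e-05). Like Fzd8, its 3 nearest genes did not pass against SP-C+ replicates 4 and 5 alone, Irx1 at -0.26, Nin at -0.28 and Zfp959 at -0.29 (limma adjusted p = 0.132, 0.159 and 0.172). These genes were picked for likeness over the same 10 arrays. The shared profile therefore includes the difference between the groups and the values on SP-C+ replicates 4 and 5, and the calls add no support.

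Among the ligands that Frizzled proteins bind, single genes reached larger differences than any receptor gene. Of 19 Wnt genes, 6 were higher and 1 lower in Axin2+ arrays, with a median difference of -0.02. That is 36.8% called, against 17.6% of all genes. Wnt3a, which signals through beta-catenin, measured 7.84, 7.78, 8.72, 7.79 and 8.31 in Axin2+ arrays, against 5.34, 5.43, 5.20, 5.34 and 5.39 in SP-C+ arrays. Axin2+ replicate 3 was again the highest array, and the difference was 2.75 ± 0.16 SE (limma adjusted p = 9.22e-08). Wnt7a and Wnt10b were higher by 1.92 ± 0.19 and 1.40 ± 0.12 (limma adjusted p = 1.02e-05 and 2.79e-06). The SP-C+ arrays lay at or under the background of sensory receptor genes for Wnt3a and Wnt10b, while all Axin2+ arrays lay above it. Wnt9b was lower by -0.27 ± 0.08 (limma adjusted p = 0.0396), near background in both groups, and among the fits that left out 1 array it passed only without SP-C+ replicate 1 or 4 or Axin2+ replicate 5, and failed in the other 7.

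Among partners of the receptors at the membrane, 2 of 20 were higher and 2 lower, with a median of -0.06. That is 20% called, near the 17.6% of all genes. Lrp5, a coreceptor of Frizzled proteins, measured 10.60, 10.63, 10.54, 10.68 and 10.75 in Axin2+ arrays, against 10.88, 10.87, 11.05, 11.09 and 11.18 in SP-C+ arrays. The groups did not overlap, and the difference was -0.37 ± 0.08 (limma adjusted p = 0.00709). Lgr4, a receptor for R-spondins, which protect Frizzled proteins from removal, was lower by -0.44 ± 0.08 (0.00230). Tmem67, a protein of the ciliary transition zone with a cysteine-rich domain like that of Frizzled proteins, was higher by 0.93 ± 0.09 (9.42e-06), or by 0.51 ± 0.08 as the mean over its probe sets (4.61e-04). Ror2, a receptor tyrosine kinase for Wnt5a, was higher by 0.38 ± 0.12 (0.0459). Ror2 kept its call only in the fits without SP-C+ replicate 1 or Axin2+ replicate 1 among the 10 that left out 1 array (limma adjusted p up to 0.115).

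A few further partners were looked at after their values were seen. The other coreceptor gene, Lrp6, did not pass (-0.12 ± 0.08, limma adjusted p = 0.376). Neither did Znrf3 and Rnf43, the ubiquitin ligases that remove Frizzled proteins from the surface, at -0.26 ± 0.12 and 0.38 ± 0.14 (limma adjusted p = 0.171 and 0.0796). Both changed with the SP-C+ arrays used: Rnf43 passed at 0.61 against replicates 1, 2 and 3 alone (limma adjusted p = 7.64e-04), and without replicate 4 or 5 (0.0175 and 0.0421), and Znrf3 passed at -0.48 against replicates 4 and 5 alone (0.0342). Tspan12, the tetraspanin that joins Fzd4 in Norrin signalling, was at -0.42 ± 0.14 (0.0507), close to the threshold, and passed at -0.54 without SP-C+ replicate 1 (0.00521), at -0.73 against SP-C+ replicates 4 and 5 alone (0.00152) and in 5 settings that kept all arrays (0.0197 to 0.0410). Ndp, the gene of Norrin, stayed within background on every array.

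**Figure D4:**
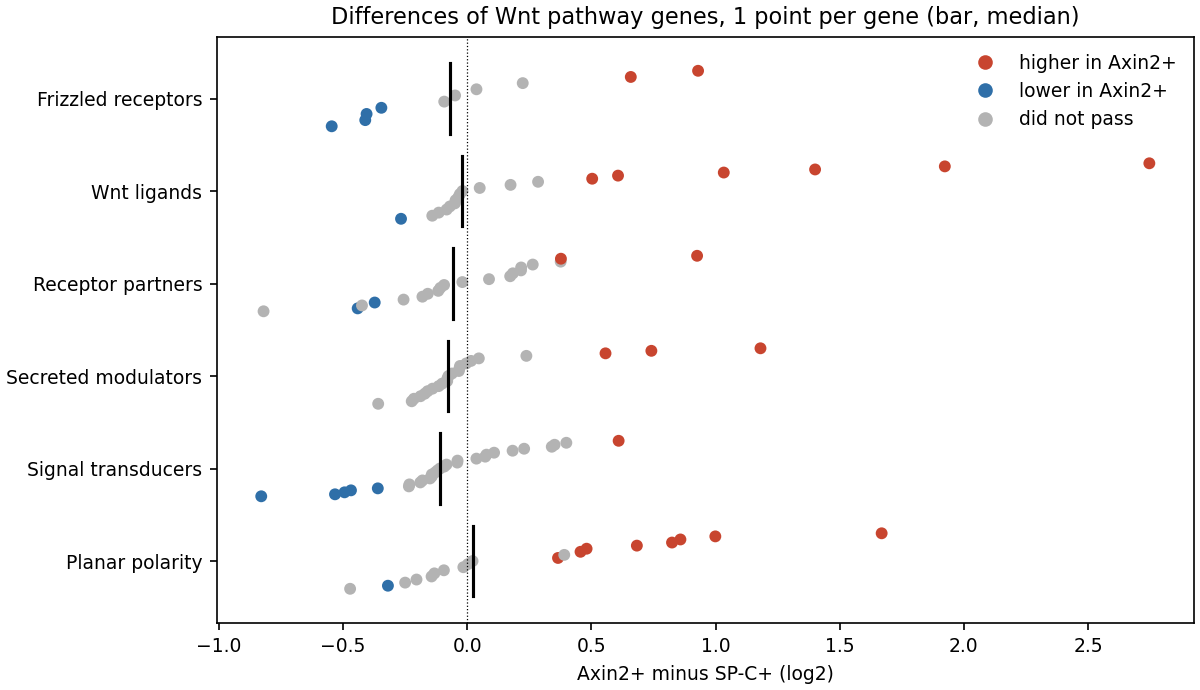
Difference of each gene (log2, Axin2+ minus SP-C+) in the Frizzled family and 5 lists of Wnt pathway genes, 1 point per gene, with black bars at the list medians; red and blue points passed as higher or lower and grey points did not pass. Points of the Frizzled family lie between -0.55 and 0.93, and those of the ligands between -0.27 and 2.75.

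Secreted modulators of Wnt signalling, many of which compete with Frizzled proteins for ligand, were mostly dim. Of 23 measured, 3 were higher and 0 lower (median -0.08), or 13% called against 17.6% of all genes. On every array 11 of them lay within background. Wif1, which binds Wnt proteins, was higher by 1.18 ± 0.10 (limma adjusted p = 1.79e-06) and Cthrc1, which is known to link Wnt proteins to Frizzled receptors, by 0.74 ± 0.19 (0.0172). Against SP-C+ replicates 4 and 5 alone Cthrc1 was at 0.32 and did not pass (limma adjusted p = 0.309). Dkkl1, a Dickkopf-like gene, was higher by 0.56 ± 0.12 (0.00610), with a value above background on 1 array. Of the secreted Frizzled-related genes, picked after their values were seen, Sfrp1, Sfrp2, Sfrp5 and Frzb stayed within background on every array, and Sfrp4 lay above it on 4 arrays and did not pass (-0.19, limma adjusted p = 0.476).

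Of 29 genes that make, send or transduce the signal inside the cell, 1 was higher and 5 lower (median -0.11). That is 20.7% called, near the 17.6% of all genes. Porcn, the enzyme that attaches the lipid by which Wnt proteins bind Frizzled proteins, was higher by 0.61 ± 0.11 (limma adjusted p = 0.00216). Lower were Nkd1, a Dishevelled-binding antagonist (-0.83 ± 0.15, limma adjusted p = 0.00223), Axin2 (-0.53 ± 0.08, 3.28e-04) and Ctnnbip1, an inhibitor of beta-catenin (-0.49 ± 0.09, 0.00183). Against SP-C+ replicates 4 and 5 alone Nkd1 was at -0.48 (limma adjusted p = 0.0185). Of 19 planar polarity genes 8 were higher and 1 lower (median 0.02), or 47.4% called. Daam2, a formin that binds Dishevelled, was higher by 1.67 ± 0.11 (limma adjusted p = 2.89e-07), Prickle1, a core polarity gene, by 0.999 ± 0.145 (3.45e-04), and Invs, inversin of the primary cilium, by 0.86 ± 0.13 (4.88e-04), or 0.56 against SP-C+ replicates 4 and 5 alone (0.00745). Celsr2, an atypical cadherin, was lower by -0.32 ± 0.10 (0.0404), and among the fits without 1 array kept its call only without SP-C+ replicate 2 or 5 (limma adjusted p up to 0.0894). Of this list, several genes also serve cilia, and markers of ciliated cells were higher in the same arrays, with list means of 8.18 to 8.54 in Axin2+ and 5.65 to 5.83 in SP-C+ arrays; their part in these differences was not tested.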

How the data were processed

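RNA (100 ng per sample, per the labels' protocols) was amplified from poly(T)-primed cDNA, labelled with biotin and hybridised to 10 Affymetrix arrays. Values for 41345 probe sets were deposited on a log2 scale, as judged from their range, after normalization by the authors. Tools named in the submitters' processing notes are oligo, RMA and limma, with no version or role. In RMA output, background left in dim probe sets understates their changes. The number of arrays limits the precision. Of the probe sets, 23521 had 1 gene symbol in the platform annotation, and the one with the highest mean was used per gene.

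Groups came from the titles. Axin2+ and SP-C+ arrays were compared with limma 3.58.1 (lmFit, eBayes; R 4.3.3) over 22180 genes, two-sided, without covariates, with Benjamini-Hochberg adjustment over all genes. The fit was tested on simulated data. Of 237 list names, 230 matched a gene. Members and lists were chosen with earlier results of these data known. Named genes are all members, Axin2, up to 3 called rises and falls per pathway list, and the 3 nearest profiles of 2 members. Alternatives comprised the replicate block, scaling, filters on dim genes, probe set choice, variance models, left-out arrays and a stricter threshold.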

Additional observations from a re-analysis of the deposited data

Results flagged for a closer look

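Fzd7 on SP-C+ replicate 5, at 10.69, stood apart from the other 4 SP-C+ arrays, which lay between 10.58 and 10.60, by a gap of 0.78 of the group's whole range. It was the 1 such value among 20 groups of 5 arrays looked at, and chance alone gives about 1 in 20. The group's spread was narrow, and the array lies on the side away from the Axin2+ arrays.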

How the results depend on the processing

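In the 22 alternative settings 0 of 42 genes refitted, the Frizzled members among them, changed direction. Fzd1 and Fzd2 remained higher and Fzd7 lower, past the threshold, in all 22, and 3 to 4 members were lower without each array in turn. Of all genes, 2974 to 4023 were called in those fits without 1 array. With SP-C+ replicates 4 and 5 as the only SP-C+ arrays, 1 member was lower and 3 (30%) were called in all, against 12.8% of all genes. With a pair of arrays in that group the fit has fewer samples. Fzd4 also lost its call when all probe sets were adjusted together (limma adjusted p = 0.0644) and against SP-C+ replicates 1, 2 and 3 alone (0.0824), against replicates 4 and 5 alone (0.0563), and at a threshold of 0.01. The adjustment over all probe sets also ended the calls of Wnt9b, Ror2, Celsr2 and Car4 (0.0735, 0.0874, 0.0768 and 0.0816), the intensity trend that of Wnt9b (0.0519), and median centring and quantile normalization that of Ror2 (0.0616 and 0.0657). Ror2 and Celsr2 did not pass against SP-C+ replicates 1, 2 and 3 alone (0.0834 and 0.0948), nor did Wnt9b, Ror2 and Car4 against replicates 4 and 5 alone (0.226, 0.146 and 0.403). Secreted modulators called numbered 5 against SP-C+ replicates 1, 2 and 3 alone, against 3 with all arrays. The shares of all genes called were 19.4% and 17.6%, and the cause was not tested. At the threshold of 0.01, 2249 of all genes were called, against 3894, and 7 of the 33 refitted genes that were called did not pass. No label ties replicate numbers across the groups, and arrays of the same number did not deviate together (correlations of -0.23 to 0.01); with the replicate number as a block 2 members were higher and 4 lower, and 2979 of all genes were called, while Wnt9b, Ror2 and Celsr2 lost their calls (limma adjusted p = 0.0871, 0.122 and 0.0673) and 0 of the other refitted genes changed their call. Filters on dim genes left out Fzd10 and, at the 50th percentile, Fzd9.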
